A study of Arabidopsis thaliana with 32 samples.

Results

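The response of Arabidopsis thaliana roots to iron deficiency was examined within the opt3-2 line. OPT3 is a transporter that loads iron into the phloem, the sugar-conducting tissue that carries a signal of shoot iron status to the root, and opt3-2 is an insertion allele known to lower OPT3 expression, in a line labelled as accumulating iron. The comparison rests on the 4 opt3-2 root libraries, chosen by their labels from the 32 libraries of the series, 2 from control medium and 2 from iron-deficient medium. Over 20586 AT loci with a mean of at least 0.5 RPKM (reads scaled by the length of the transcript and the size of the library), of 33607 AT loci in the tables, the level on deficient medium was compared with that on control medium. At the limit of 0.5, AT1G72270 lay just inside with a mean of 0.5 RPKM and AT2G05540 just outside with 0.499 RPKM.

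Seedlings of every line had grown for 10 days on full ES medium, with sucrose and continuous light and 25 to a plate, before transfer to control or deficient plates, and roots were taken 72 h later. The deficient medium held no added iron but ferrozine, a chelator of ferrous iron, at 100 µM by one label and 300 µM by another. The opt3-2 roots carry the opt3-2 insertion and were set beside roots of the EYFP OE line, the study's control, which expresses a yellow fluorescent protein under the 35S promoter. Each of these 4 groups had n = 2 libraries, which the labels call replicates. Whether they came from separate plates or cultures is not said, so the p-values speak of the spread among libraries, which may be technical. That spread was pooled over 8 root groups: these 4 and those of the overexpressor lines IMA1 OE and IMA3 OE on both media. The level filter likewise used the mean over all 16 root libraries. Read depth is unknown because the tables hold no counts, and precision rests on the spread between libraries. The labels name 1 line for each genotype. A change of transcript level cannot be told apart from a change in the share of cells that make the transcript. Levels below are deposited RPKM of replicates 1 and 2 in that order, a change is a log2 fold change with SE as its standard error, and every adjusted p comes from the limma-type test with Benjamini-Hochberg adjustment. A call is an adjusted p under 0.05, and a call is said to have ended without a library where it no longer passed once that library was left out of the fit, with the adjusted p then reached.

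In Arabidopsis roots, iron is taken up by acidification of the soil, reduction of ferric iron and import of ferrous iron. FIT, a basic helix-loop-helix (bHLH) transcription factor, acts with its partners bHLH38, bHLH39, bHLH100 and bHLH101 to raise the genes of this machinery. The BTS family of ubiquitin ligases restrains the pathway, and the IRON MAN (IMA) peptides counter those ligases. Surplus iron is held in ferritin in plastids or moved into vacuoles.

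The opt3-2 libraries carried the labelled line's features. OPT3 (AT4G16370, chr4:9247302-9250343, minus strand, RefSeq TAIR10.1) had 2.8 and 3.55 RPKM on control medium and 4.02 and 4.22 RPKM on deficient medium, against 13.8 and 9.48 RPKM on control medium and 40.7 and 98.7 RPKM on deficient medium in EYFP OE roots. Every opt3-2 library lay below every EYFP OE library, and within opt3-2 the difference between media did not pass the test (log2 fold change 0.35, SE 0.31, adjusted p = 0.854). Which part of OPT3 the remaining reads came from is not given in the tables. Summed RPKM of the 16 root libraries ran from 677223 to 740599, and log2 values of the 2 replicates of a root group correlated at 0.982 to 0.989 over the tested genes. The highest sum, 740599, belonged to an IMA3 OE library that entered these results through the shared estimate of spread alone, and 170 genes passed in opt3-2 with that group left out.

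Iron deficiency changed 183 genes in opt3-2 roots, 0.889% of those tested. Of these, 92 were higher (0.447%) and 91 lower (0.442%). The rises included the peptide gene IMA3, the transcription factors bHLH100 and MYB72, genes of coumarin synthesis, the reductase FRO2 and the importer IRT1. The falls took in ferritin, vacuolar iron transporters of the VTL family, the nicotianamine synthase NAS2, the citrate exporter FRD3 and several zinc transporters. Among the rises, log2 fold changes ran from 0.27 (SIP1A) to 4.09 (AT1G47401) with a median of 1.16, and among the falls from -0.27 (AT3G52870) to -3.25 (VTL2) with a median of -0.96. Over all tested genes the median was 0.02. All 92 rises and all 91 falls had opt3-2 libraries that did not overlap between media, so separation adds nothing to a call. Of all 20586 tested genes, 4397 had both deficient libraries above both control libraries and 3472 had both below. Separation alone was therefore common among genes without a call. The number of calls depended on single libraries: 76 or 49 genes passed without opt3-2 control replicate 1 or 2, and 92 or 77 without deficient replicate 1 or 2.

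The gene lists below were chosen with earlier results of these data known, so their counts and medians are descriptions and not tests of the lists. Each count stands beside 0.447% of all tested genes higher and 0.442% lower. Of 16 tested transcription factors of the iron deficiency network, 7 rose, with a list median of 0.47. Among the 4 FIT partners, bHLH100 had 13.8 and 11 RPKM on control medium and 81.1 and 118 RPKM on deficient medium (log2 fold change 2.99, SE 0.33, adjusted p = 0.00136). Both deficient libraries lay above both control libraries by several fold. bHLH38 had 32 and 24.9 RPKM on control medium and 114 and 141 RPKM on deficient medium (log2 fold change 2.18, SE 0.26, adjusted p = 0.00241). Its 2 groups were again apart. bHLH39 (1.87, adjusted p = 0.0293) and bHLH101 (1.50, adjusted p = 0.0308) also rose. FIT itself had 78.8 and 61.6 RPKM on control medium and 101 and 96 RPKM on deficient medium. This difference did not pass (log2 fold change 0.50, SE 0.15, adjusted p = 0.259). Its libraries did not overlap, as in many genes without a call.

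MYB72 and MYB10 are MYB factors that act downstream of FIT, and MYB72 is known for control of coumarin secretion. MYB72 (AT1G56160, chr1:21022384-21023587, plus strand) had 3.93 and 3.87 RPKM on control medium and 35.3 and 47.2 RPKM on deficient medium (log2 fold change 3.24, SE 0.32, adjusted p = 0.000864), and MYB10 had 10.3 and 11.6 RPKM on control medium and 36 and 41.1 RPKM on deficient medium (log2 fold change 1.81, SE 0.19, adjusted p = 0.00104). Neither gene's groups overlapped. PYE, a bHLH factor that lowers genes of iron transport and storage, rose by 0.56 (adjusted p = 0.0315). The bHLH factors upstream of these genes did not pass the test: ILR3 (0.20, adjusted p = 0.429), URI (0.17, adjusted p = 0.74), bHLH34 (-0.20, adjusted p = 0.704), bHLH104 (-0.02, adjusted p = 0.972) and bHLH115 (0.04, adjusted p = 0.962). Calls ended for bHLH39 without any 1 of the 4 opt3-2 libraries (highest adjusted p = 0.236), bHLH101 without any 1 of the 4 opt3-2 libraries or EYFP OE control replicate 1 (highest adjusted p = 0.249) and PYE without opt3-2 control replicate 1 or 2 or opt3-2 deficient replicate 2 or EYFP OE control replicate 1 or 2 (highest adjusted p = 0.235). The calls of bHLH38, bHLH100, MYB72 and MYB10 passed in each of the 8 fits that left out 1 opt3-2 or EYFP OE root library.

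In the second list, 5 of 7 peptides and ubiquitin ligases rose (list median 1.07). IMA3, an IRON MAN peptide gene, had 11.2 and 9.32 RPKM on control medium and 63.6 and 78.2 RPKM on deficient medium (log2 fold change 2.75, SE 0.33, adjusted p = 0.00275). Its annotated span (chr2:13107583-13110480, plus strand) overlaps that of CYP71A13 (chr2:13109909-13111988, minus strand). Whether reads were counted by strand is not given in the sources used here. IMA1 had 28 and 18.8 RPKM on control medium and 103 and 129.8 RPKM on deficient medium (log2 fold change 2.36, SE 0.38, adjusted p = 0.0165). IMA2 had 60.1 and 52.5 RPKM on control medium and 189 and 252 RPKM on deficient medium, and its difference did not pass (log2 fold change 2.00, SE 0.51, adjusted p = 0.142). In all 3 genes the deficient libraries lay above the control libraries. The ligase BTS had 21.7 and 22.4 RPKM on control medium and 41.5 and 52.1 RPKM on deficient medium (log2 fold change 1.06, SE 0.18, adjusted p = 0.0183), and its relatives BTSL1 (1.07, adjusted p = 0.00344) and BTSL2 (0.85, adjusted p = 0.00422) also rose, with no overlap of groups in any of the 3. Calls ended for IMA1 without any 1 of the 4 opt3-2 libraries (highest adjusted p = 0.159), BTS without opt3-2 control replicate 1 or 2 or opt3-2 deficient replicate 2 (highest adjusted p = 0.158) and BTSL2 without opt3-2 control replicate 2 (adjusted p = 0.06).

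Several bHLH factors of this network are known to bind the G-box, CACGTG, a palindrome that reads alike on both strands. The 150 bases before the annotated gene start (RefSeq, TAIR10.1) were searched for it in the 65 tested members of the iron regulation, uptake, coumarin, vacuolar detoxification, transport and storage lists. It was present in 3 of 26 members that rose, 2 of 10 that fell and 3 of 29 that did not pass, and in 4.78% of 27444 protein-coding genes. The windows of the 3 risers that held it, all regulators, are shown so that the motif's place before the gene start can be read, and the G-box is in capitals. They lie at chr3:21085246-21085395 on the minus strand (bHLH38), chr2:17199455-17199604 on the minus strand (bHLH100) and chr3:6273816-6273965 on the plus strand (BTS), each printed 5′ to 3′ on the gene's strand. No annotated gene overlapped them.
bHLH38: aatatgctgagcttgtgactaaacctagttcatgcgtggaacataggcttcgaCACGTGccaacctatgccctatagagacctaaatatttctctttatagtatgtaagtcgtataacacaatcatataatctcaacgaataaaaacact
bHLH100: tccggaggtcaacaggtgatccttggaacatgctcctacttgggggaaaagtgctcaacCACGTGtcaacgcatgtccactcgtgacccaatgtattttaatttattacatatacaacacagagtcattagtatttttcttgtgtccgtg
BTS: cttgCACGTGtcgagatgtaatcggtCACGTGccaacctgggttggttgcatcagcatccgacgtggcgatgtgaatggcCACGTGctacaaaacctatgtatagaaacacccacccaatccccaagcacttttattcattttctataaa
The motif begins 97 bases before the start of bHLH38 and 91 before that of bHLH100, and BTS holds 3, at 146, 124 and 70. These matches describe the letters alone. The windows of bHLH39, bHLH101, MYB72, MYB10, IMA1, IMA3, IRT1 and FRO2, which also rose, did not hold these 6 letters.

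At the root surface, 2 of 6 uptake genes rose (list median 0.75). FRO2 (AT1G01580, chr1:208995-213082, plus strand), the ferric chelate reductase, had 158 and 193 RPKM on control medium and 503 and 571 RPKM on deficient medium (log2 fold change 1.63, SE 0.21, adjusted p = 0.00335). IRT1 (AT4G19690, chr4:10707344-10709015, plus strand), the ferrous iron importer of the epidermis, had 260.4 and 280.4 RPKM on control medium and 604 and 712 RPKM on deficient medium (log2 fold change 1.29, SE 0.24, adjusted p = 0.0319). The deficient libraries of both genes lay above the control libraries, which were themselves high: in EYFP OE roots IRT1 had 13 and 22.6 RPKM on control medium and 836 and 927 RPKM on deficient medium and FRO2 had 10.4 and 15.9 RPKM on control medium and 669 and 654 RPKM on deficient medium. IRT2, an intracellular relative of IRT1, had 6.08 and 7.9 RPKM on control medium and 14.6 and 22.3 RPKM on deficient medium and did not pass (log2 fold change 1.36, SE 0.32, adjusted p = 0.0965). The proton pumps AHA2 (0.21, adjusted p = 0.787) and AHA7 (0.18, adjusted p = 0.915) and the manganese and iron transporter NRAMP1 (0.08, adjusted p = 0.908) did not pass either. The call of FRO2 passed in all 8 fits with 1 library left out, while the call ended for IRT1 without any 1 of the 4 opt3-2 libraries (highest adjusted p = 0.215).

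Coumarins are phenolic compounds that roots secrete to mobilise ferric iron. Of 6 genes for their synthesis and release, 5 rose (list median 1.67). F6'H1, which makes the coumarin backbone, had 90.04 and 113 RPKM on control medium and 271 and 419 RPKM on deficient medium (log2 fold change 1.75, SE 0.31, adjusted p = 0.0264). S8H, which makes fraxetin, had 29.1 and 42.8 RPKM on control medium and 168 and 221 RPKM on deficient medium (log2 fold change 2.48, SE 0.37, adjusted p = 0.00857). BGLU42, a glucosidase that frees coumarins for release, had 21.4 and 24.3 RPKM on control medium and 71.2 and 91.7 RPKM on deficient medium (log2 fold change 1.82, SE 0.21, adjusted p = 0.00173). The exporter ABCG37 (0.98, adjusted p = 0.0154) and COSY, which closes the coumarin ring (0.44, adjusted p = 0.0348), rose too. All 5 had deficient libraries above control libraries. CYP82C4, which converts fraxetin to sideretin, had 151 and 189 RPKM on control medium and 431 and 587 RPKM on deficient medium, with no overlap, and did not pass (log2 fold change 1.60, SE 0.38, adjusted p = 0.102); 8.98% of the 50-base windows of its exons occur elsewhere in the genome. Calls ended for F6'H1 without opt3-2 control replicate 1 or 2 or opt3-2 deficient replicate 2 (highest adjusted p = 0.205), S8H without opt3-2 control replicate 1 or opt3-2 deficient replicate 2 (highest adjusted p = 0.0975), ABCG37 without opt3-2 control replicate 1 or 2 or opt3-2 deficient replicate 2 (highest adjusted p = 0.151) and COSY without any 1 of the 4 opt3-2 libraries or EYFP OE control replicate 1 or 2 (highest adjusted p = 0.249).

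The general phenylpropanoid enzymes, which supply the precursor of coumarins and lignin, followed with 3 of 6 members higher (list median 0.63). These were PAL2 (0.93, adjusted p = 0.0308), a phenylalanine ammonia-lyase, and the coumarate ligases 4CL1 (0.71, adjusted p = 0.0266) and 4CL2 (1.02, adjusted p = 0.00731). PAL1 had 319 and 301 RPKM on control medium and 423 and 498 RPKM on deficient medium and did not pass (0.55, adjusted p = 0.194). Calls ended for PAL2 without any 1 of the 4 opt3-2 libraries or EYFP OE control replicate 1 or 2 (highest adjusted p = 0.231), 4CL1 without opt3-2 control replicate 1 or 2 or opt3-2 deficient replicate 2 (highest adjusted p = 0.208) and 4CL2 without opt3-2 control replicate 2 or opt3-2 deficient replicate 2 (highest adjusted p = 0.101).

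**Figure D1:**
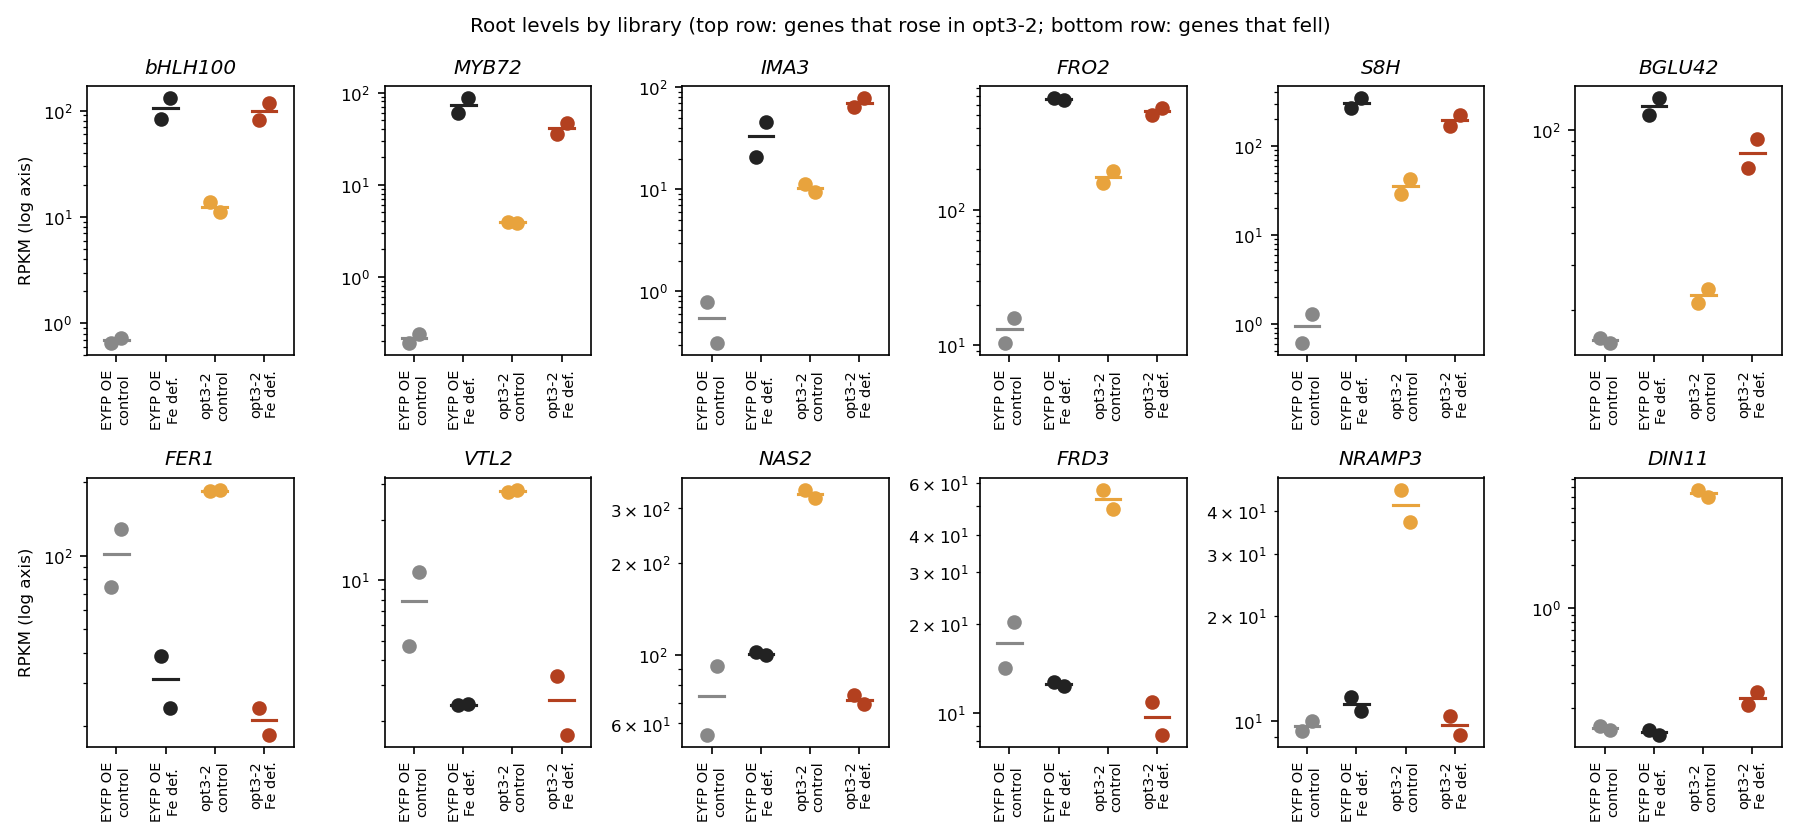
Root levels in RPKM (log axis, different in each panel) of 12 genes by library, with points for the 2 libraries of a group and a bar for their mean, in EYFP OE and opt3-2 roots on control and iron-deficient (Fe def.) medium. In the top row the opt3-2 deficient libraries lie above the opt3-2 control libraries, and in the bottom row below them: FER1 goes from 184 and 186 to 23.9 and 18.5 RPKM.

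IRT1 also imports zinc, manganese, cobalt and nickel, and a set of vacuolar transporters is known to sequester these metals. Of 6 such genes 5 rose (list median 1.34). MTP3, a zinc transporter of the vacuolar membrane, had 37.8 and 36.7 RPKM on control medium and 86 and 98.4 RPKM on deficient medium (log2 fold change 1.31, SE 0.17, adjusted p = 0.00369). FPN2, which moves nickel and cobalt into the vacuole, had 13.2 and 15.1 RPKM on control medium and 29.8 and 48.3 RPKM on deficient medium (log2 fold change 1.42, SE 0.23, adjusted p = 0.017). MTP8, a manganese transporter (1.20, adjusted p = 0.0239), ZIF1, which moves nicotianamine into the vacuole (1.41, adjusted p = 0.00457), and HMA3, a zinc and cadmium pump (1.36, adjusted p = 0.00857), rose by similar amounts. The groups were apart in all 5. MTP1, a second zinc transporter, had 60.4 and 54.6 RPKM on control medium and 58.9 and 60.5 RPKM on deficient medium, and its groups overlapped. Calls ended for MTP3 without opt3-2 control replicate 2 (adjusted p = 0.0547), FPN2 without opt3-2 control replicate 1 or 2 or opt3-2 deficient replicate 2 (highest adjusted p = 0.151), MTP8 without any 1 of the 4 opt3-2 libraries (highest adjusted p = 0.204), ZIF1 without opt3-2 control replicate 2 or opt3-2 deficient replicate 2 (highest adjusted p = 0.0651) and HMA3 without opt3-2 control replicate 2 or opt3-2 deficient replicate 2 (highest adjusted p = 0.111).

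Genes of iron movement and chelation inside the plant went in both directions, with 2 of 17 higher and 4 lower and a list median of 0.01. Nicotianamine chelates iron for transport, and its synthases did not move together. NAS2 (AT5G56080, chr5:22711141-22712441, minus strand) had 345 and 325 RPKM on control medium and 74 and 69.3 RPKM on deficient medium (log2 fold change -2.21, SE 0.18, adjusted p = 0.00026), and its groups were far apart. NAS1 had 269 and 253 RPKM on control medium and 177 and 216 RPKM on deficient medium and did not pass (log2 fold change -0.41, SE 0.18, adjusted p = 0.552). NAS4 had 26.6 and 31.8 RPKM on control medium and 78.2 and 106 RPKM on deficient medium and did not pass either (log2 fold change 1.65, SE 0.36, adjusted p = 0.0696). In neither of these did the libraries overlap.

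FRD3 (AT3G08040, chr3:2566196-2569700, minus strand) exports citrate, which carries iron in the xylem. It had 56.8 and 49 RPKM on control medium and 10.9 and 8.43 RPKM on deficient medium (log2 fold change -2.38, SE 0.20, adjusted p = 0.000284). NRAMP3 (AT2G23150, chr2:9856149-9858778, minus strand), which releases iron from the vacuole, had 45.9 and 37.2 RPKM on control medium and 10.3 and 9.14 RPKM on deficient medium (log2 fold change -2.01, SE 0.19, adjusted p = 0.000475). In both genes the control libraries stood several fold above the deficient ones. NRAMP4, a close relative of NRAMP3 with the same known role, went the other way, with 21.3 and 22.2 RPKM on control medium and 42 and 49.3 RPKM on deficient medium (log2 fold change 1.06, SE 0.19, adjusted p = 0.0264). FRO3, a mitochondrial ferric reductase, rose (1.28, adjusted p = 0.00897), and YSL2, a transporter of metal nicotianamine complexes, fell (-0.68, adjusted p = 0.0264). Calls ended for NRAMP4 without any 1 of the 4 opt3-2 libraries (highest adjusted p = 0.197), FRO3 without opt3-2 control replicate 1 or 2 or opt3-2 deficient replicate 2 (highest adjusted p = 0.101) and YSL2 without any 1 of the 4 opt3-2 libraries (highest adjusted p = 0.203). Those of NAS2, FRD3 and NRAMP3 passed in all 8 fits with 1 library left out.

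Of 7 tested iron storage genes, 6 fell (list median -2.04). The ferritin gene FER1 (AT5G01600, chr5:227953-230051, minus strand) had 184 and 186 RPKM on control medium and 23.9 and 18.5 RPKM on deficient medium (log2 fold change -3.10, SE 0.25, adjusted p = 0.00026). FER4 had 16.6 and 16.4 RPKM on control medium and 6.03 and 4.37 RPKM on deficient medium (log2 fold change -1.57, SE 0.17, adjusted p = 0.00122), and FER3 had 71.1 and 64.2 RPKM on control medium and 38.9 and 30.04 RPKM on deficient medium (log2 fold change -0.96, SE 0.17, adjusted p = 0.0233). The control libraries lay above the deficient libraries in all 3. FER2, the seed ferritin, had 9.23 and 9.23 RPKM on control medium and 6.55 and 3.37 RPKM on deficient medium and did not pass (-0.86, adjusted p = 0.13).

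The VTL genes encode iron transporters related to the vacuolar importer VIT1. VTL2 had 27.5 and 28.2 RPKM on control medium and 3.36 and 1.71 RPKM on deficient medium (log2 fold change -3.25, SE 0.32, adjusted p = 0.000899). VTL1 had 60.8 and 75.2 RPKM on control medium and 8.86 and 6.66 RPKM on deficient medium (log2 fold change -3.04, SE 0.34, adjusted p = 0.00173). VTL5 had 220.1 and 189 RPKM on control medium and 66.1 and 36 RPKM on deficient medium (log2 fold change -2.04, SE 0.37, adjusted p = 0.0279). All 3 were lower in each deficient library than in either control library. VIT1, VTL3 and VTL4 were below the level filter. Calls ended for FER3 without opt3-2 control replicate 1 or 2 or opt3-2 deficient replicate 2 (highest adjusted p = 0.189) and VTL5 without opt3-2 control replicate 1 or 2 or opt3-2 deficient replicate 2 (highest adjusted p = 0.214). The summed RPKM of 16 marker genes of green shoot tissue also went down, from 358 and 652 on control medium to 218 and 312 on deficient medium. No marker of that list passed the limma-type test (9 were lower at an unadjusted p under 0.05, with a list median of -0.77), and their part in the falls was not tested.

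Among the 10 members that fell in the lists searched for the G-box, FER3 and FER4 held it within 150 bases of the start, and these are shown to set the falling pair beside the regulators above, with the G-box in capitals. They lie at chr3:20816036-20816185 on the minus strand (FER3) and chr2:16833295-16833444 on the minus strand (FER4).
FER3: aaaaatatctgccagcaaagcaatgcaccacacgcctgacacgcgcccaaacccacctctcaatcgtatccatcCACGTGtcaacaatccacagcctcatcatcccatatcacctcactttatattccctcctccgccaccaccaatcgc
FER4: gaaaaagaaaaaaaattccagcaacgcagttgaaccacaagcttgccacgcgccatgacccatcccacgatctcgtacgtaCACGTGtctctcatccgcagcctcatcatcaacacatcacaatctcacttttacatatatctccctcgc
The motif begins 76 bases before the start of FER3 and 69 before that of FER4. The windows of FER1, VTL1, VTL2, VTL5, NAS2, FRD3, NRAMP3 and YSL2 did not hold these letters.

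Of the superoxide dismutases, 1 iron enzyme fell and 1 copper and zinc enzyme rose. FSD1, an iron superoxide dismutase, had 94.8 and 143 RPKM on control medium and 16.9 and 19.6 RPKM on deficient medium (log2 fold change -2.65, SE 0.34, adjusted p = 0.00359). The copper and zinc enzyme CSD1 had 543 and 505 RPKM on control medium and 684 and 711 RPKM on deficient medium (log2 fold change 0.40, SE 0.07, adjusted p = 0.0295), and CCS, the chaperone that supplies its copper, rose by 0.35 (adjusted p = 0.0473). The iron enzymes FSD2 (-0.12, adjusted p = 0.805) and FSD3 (-0.08, adjusted p = 0.936) and the copper and zinc enzymes CSD2 (0.21, adjusted p = 0.437) and CSD3 (0.06, adjusted p = 0.926) did not pass. CAT2, a haem catalase, fell (-0.60, adjusted p = 0.0437). FSD1, CSD1, CCS and CAT2 had no overlap of groups. In this list of 11 the counts were 2 higher and 2 lower, with a median of -0.08. Calls ended for FSD1 without opt3-2 control replicate 2 (adjusted p = 0.0587), CSD1 without any 1 of the 4 opt3-2 libraries or EYFP OE control replicate 1 or 2 (highest adjusted p = 0.254), CCS without any 1 of the 4 opt3-2 libraries or any 1 of the 4 EYFP OE libraries (highest adjusted p = 0.292) and CAT2 without any 1 of the 4 opt3-2 libraries or EYFP OE control replicate 1 or 2 (highest adjusted p = 0.262).

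In the zinc list, 4 of 10 members fell, all of them transporters of the ZIP family, and the list median was -0.48. IRT3 had 62.3 and 73.6 RPKM on control medium and 21.6 and 24.6 RPKM on deficient medium (log2 fold change -1.53, SE 0.13, adjusted p = 0.00033). ZIP4 had 18.3 and 23.3 RPKM on control medium and 6.33 and 8.22 RPKM on deficient medium (log2 fold change -1.43, SE 0.14, adjusted p = 0.000932). ZIP1 (-0.93, adjusted p = 0.00154) and ZIP3 (-1.20, adjusted p = 0.00954) fell by similar or smaller amounts, and the groups were apart in all 4. ZIP5 (-0.78, adjusted p = 0.153) and ZIP9 (0.47, adjusted p = 0.635) did not pass. ZIP2, a metal transporter placed in the copper list, had 21.1 and 13.7 RPKM on control medium and 5.12 and 4.32 RPKM on deficient medium (log2 fold change -1.73, SE 0.21, adjusted p = 0.00284) and was the 1 member of 8 in that list that passed. COPT2, a copper importer, had 10.5 and 11 RPKM on control medium and 17 and 25.6 RPKM on deficient medium, and did not pass (log2 fold change 0.97, SE 0.20, adjusted p = 0.0591). Calls ended for ZIP3 without opt3-2 control replicate 2 or opt3-2 deficient replicate 1 (highest adjusted p = 0.12).

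In the list of iron-sulfur proteins and their assembly, 1 of 18 members passed (list median -0.07). This was SUFB, a scaffold protein of plastid cluster assembly, with 35.2 and 35.5 RPKM on control medium and 20.2 and 18.2 RPKM on deficient medium (log2 fold change -0.85, SE 0.15, adjusted p = 0.0264), and its call ended when any 1 of the 4 opt3-2 libraries was left out (highest adjusted p = 0.191). The sulfite reductase SIR was close to the threshold (-0.38, adjusted p = 0.0517). Of 15 genes of the methionine cycle and ethylene synthesis, 2 rose (list median 0.11). SAM1, which makes S-adenosylmethionine, the precursor of nicotianamine and ethylene, had 610.4 and 679 RPKM on control medium and 1087 and 1489 RPKM on deficient medium (log2 fold change 0.96, SE 0.14, adjusted p = 0.00654), and DEP1, an enzyme of methionine salvage, rose by 0.55 (adjusted p = 0.0267). GSTL1, a lambda glutathione transferase, was the 1 of 5 members of the mitochondrial and oxidative stress list that passed, with 85.2 and 85.1 RPKM on control medium and 215 and 275 RPKM on deficient medium (log2 fold change 1.53, SE 0.26, adjusted p = 0.0184). Calls ended for SAM1 without opt3-2 control replicate 1 (adjusted p = 0.0771), DEP1 without any 1 of the 4 opt3-2 libraries (highest adjusted p = 0.205) and GSTL1 without any 1 of the 4 opt3-2 libraries (highest adjusted p = 0.158).

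**Figure D2:**
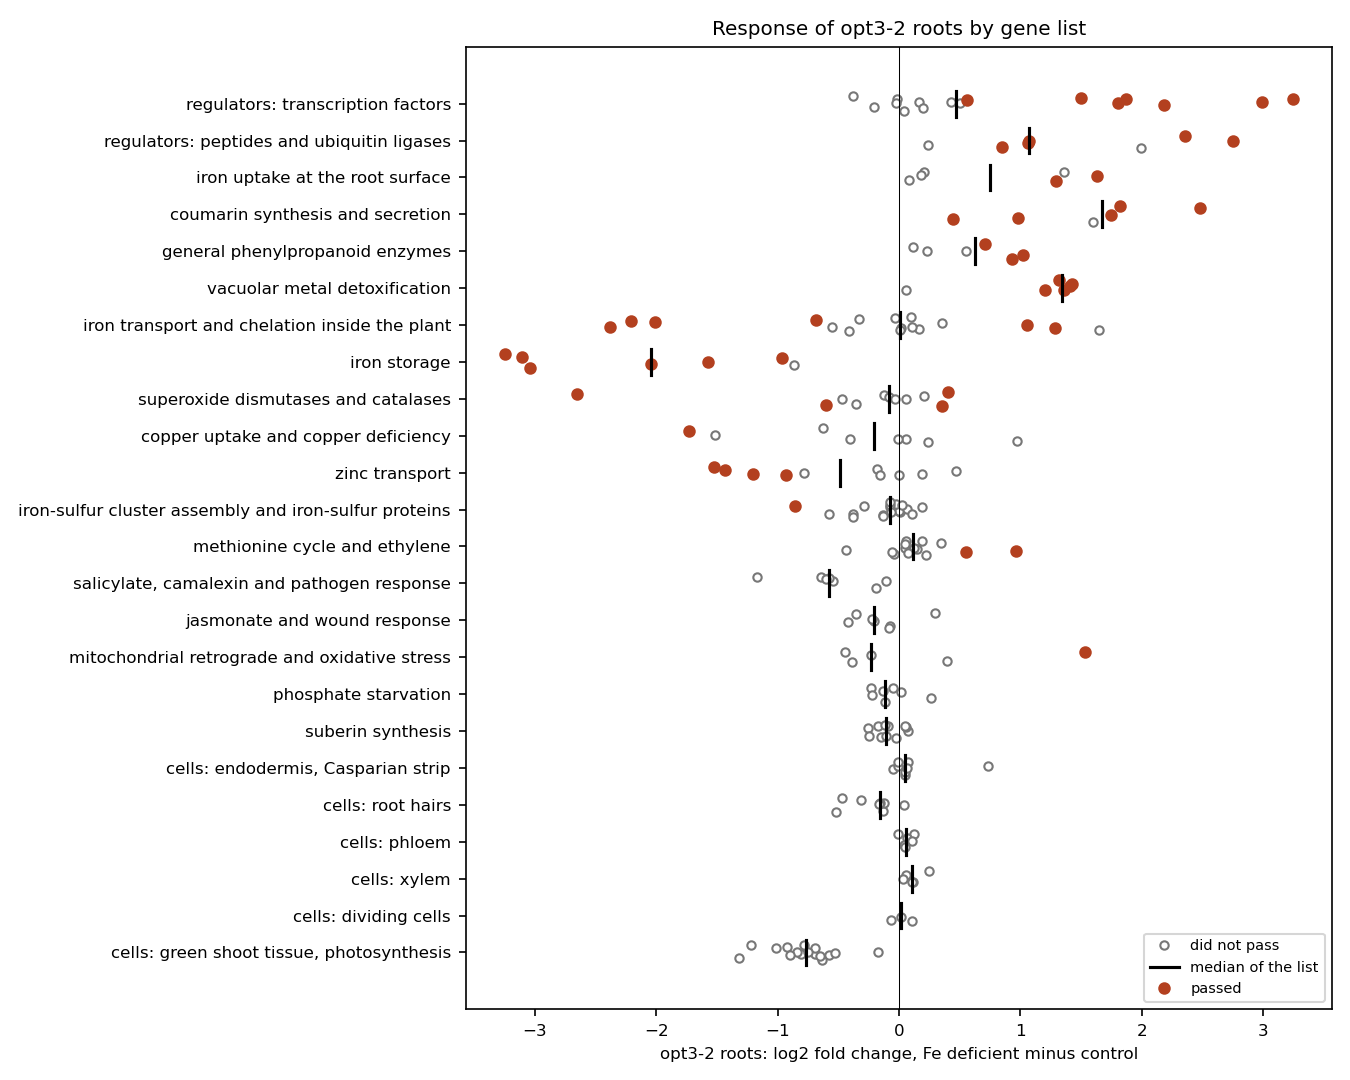
Change in opt3-2 roots, deficient minus control medium, as log2 fold change (horizontal axis) for the tested members of 24 gene lists (rows), with filled points for genes that passed at an adjusted p under 0.05, open points for the others and a bar for the list median. Filled points lie to the right for regulators, uptake, coumarins and vacuolar detoxification, and to the left for storage (median -2.04) and zinc transport.

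Outside the lists, the 20 largest rises included 4 loci whose identifiers follow that of IMA1 (AT1G47400). Coordinates are given for 1 of them, AT1G47405. AT1G47402 had 6 and 4.53 RPKM on control medium and 60.6 and 91 RPKM on deficient medium (log2 fold change 3.75, SE 0.44, adjusted p = 0.00236). AT1G47401 had 0.61 and 0.44 RPKM on control medium and 13.7 and 20.9 RPKM on deficient medium (log2 fold change 4.09, SE 0.61, adjusted p = 0.00904), and AT1G47407 had 3.36 and 1.02 RPKM on control medium and 22 and 28.4 RPKM on deficient medium (log2 fold change 3.42, SE 0.52, adjusted p = 0.0111). The pseudogene AT1G47405 (chr1:17389679-17390781, plus strand) had 0.74 and 0.33 RPKM on control medium and 7.39 and 7.34 RPKM on deficient medium (log2 fold change 2.95, SE 0.21, adjusted p = 0.000173). The groups were apart in all 4, which the rule for naming genes outside the lists required. For comparison, IMA2 lies at chr1:17382998-17383830 and IMA1 at chr1:17385707-17386485, both on the plus strand. The libraries came from a stranded kit, but the counting setting is not given in the sources used here, so reads of any overlapping loci cannot be told apart. AT2G44744 had 3.29 and 1.09 RPKM on control medium and 27.1 and 48.5 RPKM on deficient medium (log2 fold change 3.90, SE 0.52, adjusted p = 0.00479). Calls ended for AT1G47401 without opt3-2 control replicate 1 or 2 or opt3-2 deficient replicate 2 (highest adjusted p = 0.101), AT1G47407 without opt3-2 control replicate 2 or opt3-2 deficient replicate 1 or 2 (highest adjusted p = 0.12) and AT2G44744 without opt3-2 control replicate 2 or opt3-2 deficient replicate 2 (highest adjusted p = 0.0651).

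Other large rises were AT1G52120, a protein of the mannose-binding lectin superfamily, with 5.05 and 5.11 RPKM on control medium and 37.1 and 49.96 RPKM on deficient medium (log2 fold change 2.99, SE 0.25, adjusted p = 0.00033), and CYP71B5, a cytochrome P450 (2.85, adjusted p = 0.0135). FOLB1, a dihydroneopterin aldolase of folate synthesis, had 1.48 and 2 RPKM on control medium and 10.1 and 12.8 RPKM on deficient medium (log2 fold change 2.47, SE 0.25, adjusted p = 0.000932). CGLD27, a protein of the DUF1230 family, had 5.85 and 3.59 RPKM on control medium and 17.9 and 27.1 RPKM on deficient medium (log2 fold change 2.18, SE 0.27, adjusted p = 0.00318). No groups overlapped among these, as the same naming rule required. A pair of DUF506 family genes rose, AT1G12030 with 1.53 and 1.39 RPKM on control medium and 10.1 and 22.4 RPKM on deficient medium (log2 fold change 3.00, SE 0.39, adjusted p = 0.00404) and AT1G62420 with 1.18 and 0.35 RPKM on control medium and 3.82 and 6.8 RPKM on deficient medium (log2 fold change 2.23, SE 0.38, adjusted p = 0.0191). AT1G56150, a SAUR-like gene at chr1:21017311-21018122 next to MYB72, had 2.62 and 2.8 RPKM on control medium and 9.86 and 14.7 RPKM on deficient medium (log2 fold change 2.01, SE 0.28, adjusted p = 0.00654). SCRL28, which RefSeq lists as a transcribed pseudogene (3.30, adjusted p = 0.0024), and AT1G53635, an uncharacterized protein (2.19, adjusted p = 0.00173), complete the 20. Calls ended for CYP71B5 without opt3-2 control replicate 1 or 2 or opt3-2 deficient replicate 2 (highest adjusted p = 0.143), AT1G12030 without opt3-2 control replicate 2 (adjusted p = 0.0587), AT1G62420 without opt3-2 control replicate 2 or opt3-2 deficient replicate 2 (highest adjusted p = 0.167) and AT1G56150 without opt3-2 control replicate 1 or 2 or opt3-2 deficient replicate 2 (highest adjusted p = 0.0753).

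The largest falls outside the lists began with DIN11 (AT3G49620, chr3:18393747-18397050, plus strand), a 2-oxoglutarate and iron dependent oxygenase. It had 6.75 and 5.99 RPKM on control medium and 0.21 and 0.26 RPKM on deficient medium (log2 fold change -3.21, SE 0.15, adjusted p = 4.10e-06). Its control libraries were far above its deficient libraries, and in EYFP OE roots all 4 libraries lay between 0.13 and 0.15 RPKM. DIR5, a dirigent-like protein, had 8.28 and 10.2 RPKM on control medium and 0.48 and 0.83 RPKM on deficient medium (log2 fold change -3.05, SE 0.35, adjusted p = 0.00191), and PRX52, a peroxidase, had 3.64 and 5.86 RPKM on control medium and 0.33 and 0.46 RPKM on deficient medium (log2 fold change -2.48, SE 0.34, adjusted p = 0.00512). GAD4, a glutamate decarboxylase, had 3.11 and 3.66 RPKM on control medium and 0.42 and 0.59 RPKM on deficient medium (log2 fold change -1.93, SE 0.27, adjusted p = 0.00688). In each of these genes the deficient libraries lay below the control libraries, as the naming rule required. IGMT4, an O-methyltransferase (-1.74, adjusted p = 0.00928), GSTF6, a glutathione transferase (-1.91, adjusted p = 0.042), and AT3G20340 (-1.96, adjusted p = 0.00651) also fell. For IGMT4 and GSTF6, 9.05% and 10.3% of the 50-base windows of their exons occur elsewhere in the genome. Calls ended for PRX52 without opt3-2 control replicate 2 or opt3-2 deficient replicate 1 (highest adjusted p = 0.0785), GAD4 without opt3-2 control replicate 2 or opt3-2 deficient replicate 1 (highest adjusted p = 0.0907), IGMT4 without opt3-2 control replicate 2 or opt3-2 deficient replicate 1 (highest adjusted p = 0.115), GSTF6 without any 1 of the 4 opt3-2 libraries (highest adjusted p = 0.285) and AT3G20340 without opt3-2 control replicate 2 or opt3-2 deficient replicate 2 (highest adjusted p = 0.0835).

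Of the 20 largest falls, 4 carry defensin-like product names in RefSeq. AT3G59930 had 629.5 and 628 RPKM on control medium and 83.4 and 134 RPKM on deficient medium (log2 fold change -2.57, SE 0.19, adjusted p = 0.000207), and AT5G33355 had 504 and 510.4 RPKM on control medium and 72.3 and 114 RPKM on deficient medium (log2 fold change -2.46, SE 0.29, adjusted p = 0.00244). Both dropped in each deficient library. These values are uncertain as separate levels, since 22.2% and 28.1% of the 50-base windows of their exons occur elsewhere in the genome and how such reads were counted is not given in the sources used here. AT4G11393 had 11.6 and 11.5 RPKM on control medium and 0.57 and 1.44 RPKM on deficient medium (log2 fold change -3.04, SE 0.58, adjusted p = 0.0363), and AT1G34047 had 30.2 and 46.2 RPKM on control medium and 7.48 and 11.7 RPKM on deficient medium (log2 fold change -1.91, SE 0.30, adjusted p = 0.0135). Calls ended for AT4G11393 without any 1 of the 4 opt3-2 libraries (highest adjusted p = 0.276) and AT1G34047 without opt3-2 control replicate 2 or opt3-2 deficient replicate 1 (highest adjusted p = 0.148).

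**Figure D3:**
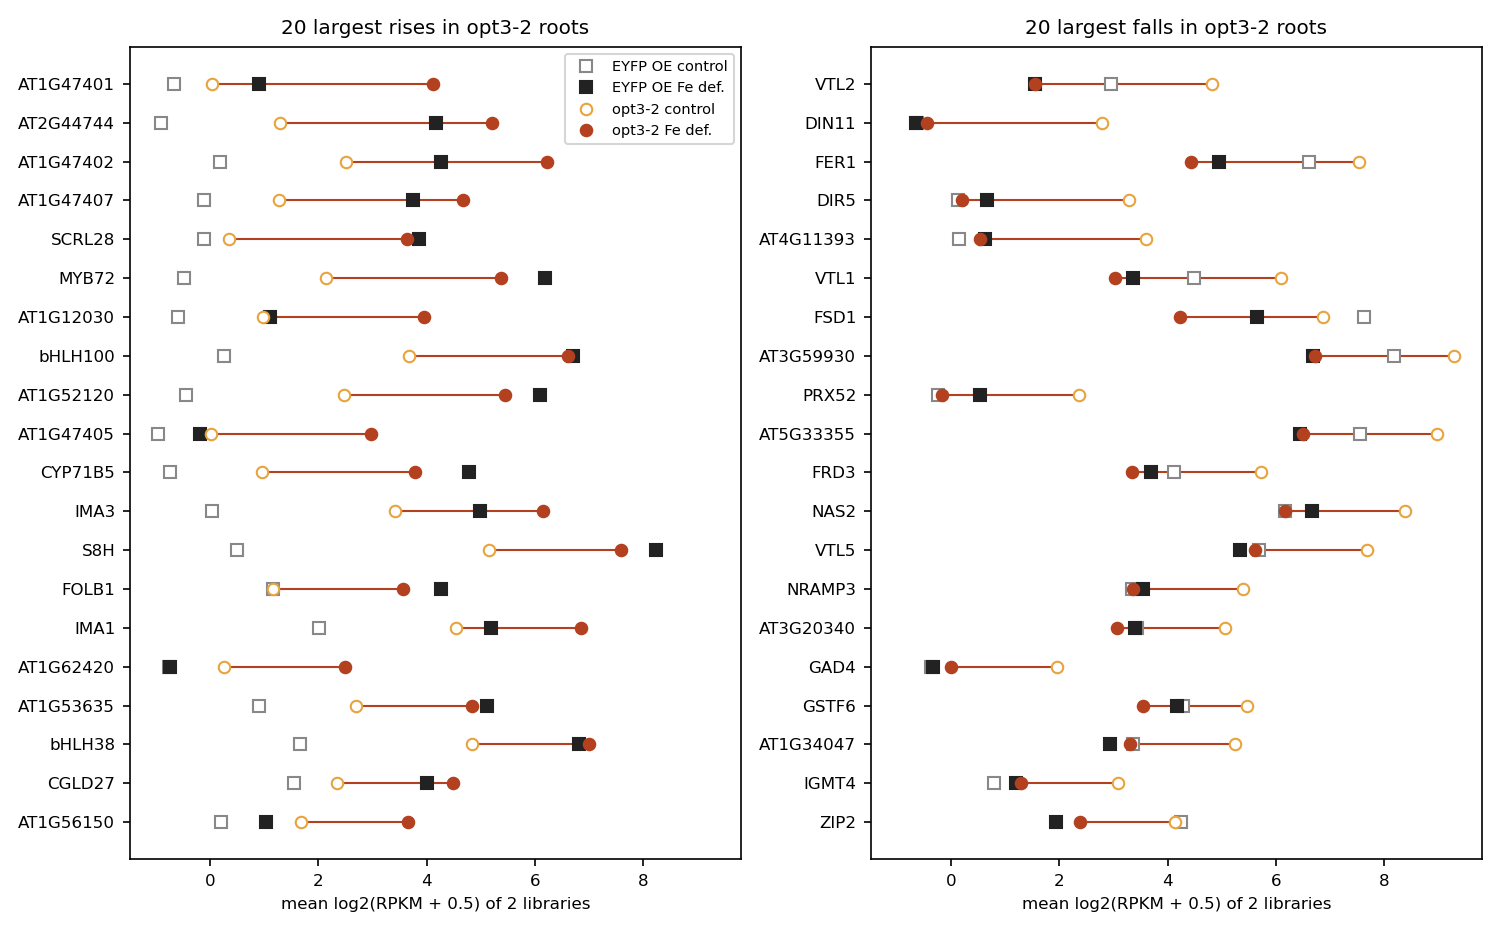
Mean log2(RPKM + 0.5) of 2 libraries (horizontal axis) for the 20 largest rises (left) and the 20 largest falls (right) in opt3-2 roots, with circles for opt3-2 and squares for EYFP OE, open on control and filled on deficient medium, and a line joining the opt3-2 means. On the right the open circles of NAS2, NRAMP3, DIN11 and DIR5 stand apart from the other 3 groups, while those of ZIP2 lie beside the open squares.

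The response of opt3-2 was then set against that of EYFP OE roots by a test of the difference between the responses, which used all 8 libraries. Of 20586 genes, 91 differed (0.442%), 88 with a lower and 3 with a higher change in opt3-2 (0.427% and 0.0146%). In the difference, negative values mean a smaller rise or a larger fall in opt3-2. Among the genes that differed were 2 of 6 uptake genes, 2 of 6 coumarin genes and 0 of 6 general phenylpropanoid enzymes. For IRT1 the opt3-2 change was 1.29 and the EYFP OE change 5.64 (difference -4.30, SE 0.34, adjusted p = 0.000343), and for FRO2 1.63 and 5.63 (-3.92, SE 0.29, adjusted p = 0.00033). S8H differed by -5.27, SE 0.52, adjusted p = 0.000927, and CYP82C4 by -5.41, SE 0.53, adjusted p = 0.000927. In these 4 genes the opt3-2 control libraries lay far above the EYFP OE control libraries, while the values on deficient medium were nearer: S8H had 0.61 and 1.3 RPKM in EYFP OE and 29.1 and 42.8 RPKM in opt3-2 on control medium, and 268 and 344 RPKM and 168 and 221 RPKM on deficient medium.

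Regulators differed in the same direction. The difference was -3.47, SE 0.46, adjusted p = 0.00577 for bHLH100, -3.41, SE 0.45, adjusted p = 0.00564 for MYB72 and -2.95, SE 0.37, adjusted p = 0.00393 for bHLH38. It was -2.22, SE 0.26, adjusted p = 0.00269 for MYB10 and -1.41, SE 0.19, adjusted p = 0.0067 for BTSL1. For FIT, which had not passed within opt3-2, it was -1.19, SE 0.22, adjusted p = 0.045. Of 16 transcription factors 7 differed and of 7 peptides and ligases 1 did. The vacuolar transporters MTP3 (-2.52, adjusted p = 0.000927), MTP8 (-2.80, adjusted p = 0.00128), HMA3 (-2.16, adjusted p = 0.00564) and FPN2 (-1.85, adjusted p = 0.0404) differed as well, 4 of that list's 6. Calls of a difference ended for bHLH39 without any 1 of the 4 opt3-2 libraries or EYFP OE control replicate 2 or EYFP OE deficient replicate 1 or 2 (highest adjusted p = 0.184), bHLH101 without any 1 of the 4 opt3-2 libraries or EYFP OE control replicate 1 or 2 or EYFP OE deficient replicate 2 (highest adjusted p = 0.172), FIT without opt3-2 control replicate 1 or opt3-2 deficient replicate 1 or 2 or any 1 of the 4 EYFP OE libraries (highest adjusted p = 0.202) and FPN2 without opt3-2 control replicate 1 or 2 or opt3-2 deficient replicate 1 or any 1 of the 4 EYFP OE libraries (highest adjusted p = 0.178).

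A second set of differences came from genes that fell in opt3-2 from a raised level. NAS2 differed by -2.71, SE 0.25, adjusted p = 0.000927: in EYFP OE roots it had 55.2 and 92.3 RPKM on control medium and 103 and 99.9 RPKM on deficient medium, all well under the opt3-2 control libraries. NRAMP3 (-2.22, SE 0.26, adjusted p = 0.00241) and FRD3 (-1.97, SE 0.28, adjusted p = 0.00852) differed likewise, with 9.33 and 9.99 RPKM on control medium and 11.7 and 10.7 RPKM on deficient medium for NRAMP3 and 14.2 and 20.2 RPKM on control medium and 12.7 and 12.3 RPKM on deficient medium for FRD3 in EYFP OE roots. DIN11 (-3.18, SE 0.21, adjusted p = 0.00019), DIR5 (-3.57, adjusted p = 0.00813), PRX52 (-3.24, adjusted p = 0.0118) and IGMT4 (-2.13, adjusted p = 0.0345) complete the set among the genes named above. The opt3-2 control group alone was high in each of these. Calls of a difference ended for FRD3 without opt3-2 control replicate 1 (adjusted p = 0.0578), DIR5 without opt3-2 control replicate 2 or opt3-2 deficient replicate 1 or EYFP OE control replicate 1 (highest adjusted p = 0.0531), PRX52 without opt3-2 control replicate 2 or opt3-2 deficient replicate 1 or EYFP OE control replicate 1 or EYFP OE deficient replicate 2 (highest adjusted p = 0.0759) and IGMT4 without opt3-2 control replicate 2 or opt3-2 deficient replicate 1 or any 1 of the 4 EYFP OE libraries (highest adjusted p = 0.14).

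Other genes differed in response without a call inside opt3-2. NAS1 rose in EYFP OE roots, from 51.7 and 69 to 245 and 276 RPKM, and differed by -2.51, SE 0.26, adjusted p = 0.00109. AT1G73120, of the F-box superfamily, had 171 and 153 RPKM on control medium and 70.5 and 49.1 RPKM on deficient medium in opt3-2 and 4.41 and 11.5 RPKM on control medium and 112 and 72.3 RPKM on deficient medium in EYFP OE roots (difference -4.97, SE 0.54, adjusted p = 0.0014). Its opt3-2 control libraries were above all others. ZIP8, listed by RefSeq as a transcribed pseudogene, had 6.49 and 7.58 RPKM on control medium and 6.85 and 11 RPKM on deficient medium in opt3-2 and 0.2 and 0.2 RPKM on control medium and 12.6 and 16.6 RPKM on deficient medium in EYFP OE roots (difference -4.13, SE 0.41, adjusted p = 0.00107), so that the EYFP OE control group alone was low. The subtilase gene AT4G10510 differed as well (-3.57, SE 0.31, adjusted p = 0.000622). The methionine salvage genes MTK (-1.34, adjusted p = 0.000927), MTI1 (-1.29, adjusted p = 0.0012) and ARD2 (-1.16, adjusted p = 0.00564) and the copper importer COPT2 (-2.77, adjusted p = 0.0012) differed too. For iron storage 0 of 7 members differed by the limma-type test, although 4 were lower at an unadjusted p under 0.05 and the list's median difference was -1.44, beside 0.03 over all genes.

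The 3 genes with a higher change in opt3-2 were AT1G47405, MIR159a and AT5G38290. AT1G47405 had 0.01 and 0.01 RPKM on control medium and 0.22 and 0.57 RPKM on deficient medium in EYFP OE roots (difference 2.16, SE 0.30, adjusted p = 0.00813). Its mean level went from 0.01 to 0.395 RPKM in EYFP OE and from 0.535 to 7.365 RPKM in opt3-2 roots. As a plain ratio of these means the EYFP OE rise is the larger. The sign of this difference therefore rests on adding a pseudocount to EYFP OE levels near the floor. It was the same with pseudocounts of 0.1, 0.5 and 1 RPKM. The MIR159a locus (AT1G73687), which holds the precursor of a microRNA that targets MYB transcripts, had 0.42 and 0.42 RPKM on control medium and 1.53 and 1.45 RPKM on deficient medium in opt3-2 and 1.63 and 1.79 RPKM on control medium and 1.03 and 1.29 RPKM on deficient medium in EYFP OE roots (difference 1.59, SE 0.29, adjusted p = 0.0464). AT5G38290, a peptidyl-tRNA hydrolase, had 5.19 and 4.82 RPKM on control medium and 5.37 and 5.7 RPKM on deficient medium in opt3-2 and 5.69 and 6.19 RPKM on control medium and 3.88 and 3.78 RPKM on deficient medium in EYFP OE roots (difference 0.74, SE 0.12, adjusted p = 0.0301). The calls ended for MIR159a without any 1 of the 4 opt3-2 libraries or any 1 of the 4 EYFP OE libraries (highest adjusted p = 0.203) and AT5G38290 without any 1 of the 4 opt3-2 libraries or any 1 of the 4 EYFP OE libraries (highest adjusted p = 0.141), and the call of the rise ended for MIR159a without any 1 of the 4 opt3-2 libraries (highest adjusted p = 0.17).

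**Figure D4:**
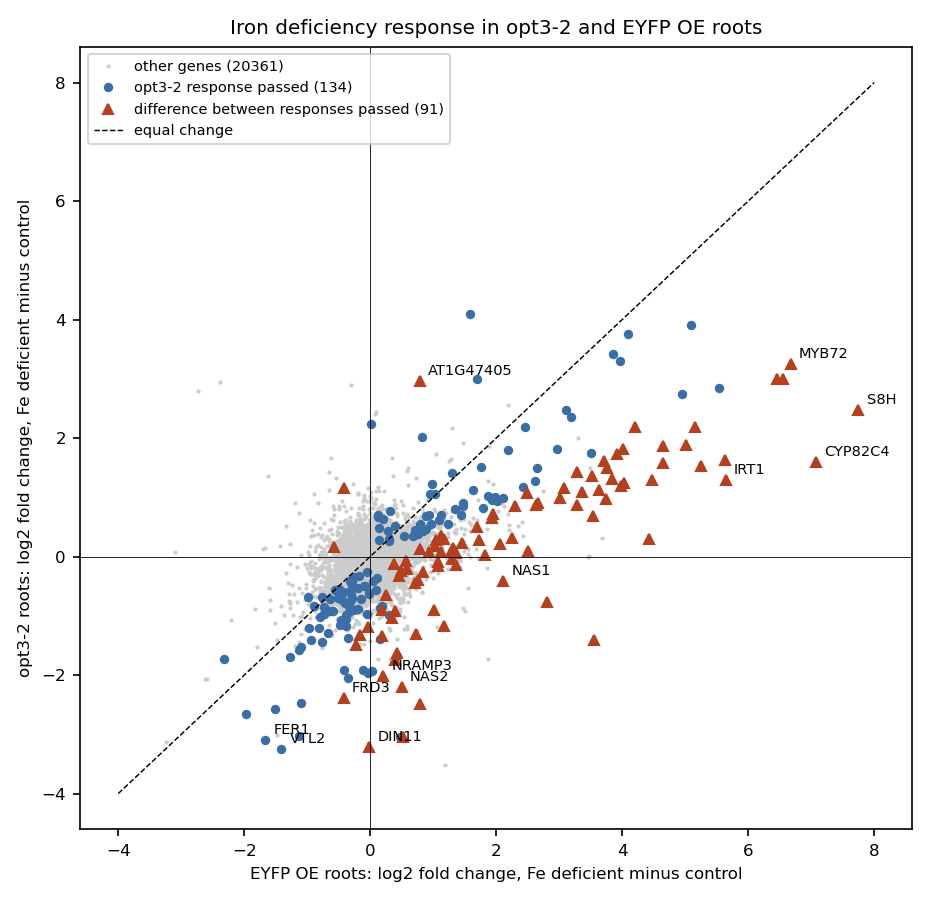
Log2 fold change of each tested gene on deficient against control medium in EYFP OE roots (horizontal axis) and in opt3-2 roots (vertical axis), with triangles for the 91 genes whose responses differed, circles for other genes that passed in opt3-2, grey points for the rest and a dashed line where both changes are equal. The 2 axes come from separate pairs of groups, and their tables were equalised with the same EYFP OE control libraries. Most triangles lie below the dashed line. AT1G47405, whose mean EYFP OE levels are under the pseudocount of 0.5 RPKM, lies above it.

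To compare fold changes without a shared library, the opt3-2 change was taken as the plain difference of its own 4 libraries. This gave 89 higher and 100 lower genes. The tables behind that change had still been equalised with the same EYFP OE control libraries. The calls of opt3-2 and EYFP OE also shared an estimate of spread pooled over all root groups, so these calls were not independent. The EYFP OE response had 532 genes (2.58%), 441 higher (2.14%) and 91 lower (0.442%). Of the rises 78 were shared, 87.6% of those of opt3-2 and 17.7% of those of EYFP OE. Of the falls 23 were shared, 23% and 25.3%.

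On deficient medium itself, opt3-2 and EYFP OE roots differed at 18 genes (0.0874%), 12 higher (0.0583%) and 6 lower (0.0291%) in opt3-2. OPT3 was lower (-3.83, adjusted p = 0.000247). AT1G47405 (3.15, adjusted p = 5.19e-05), AT1G12030 (2.85, adjusted p = 0.0225), AT1G62420 (3.21, adjusted p = 0.00694) and AT1G56150 (2.61, adjusted p = 0.00415) were higher. IRT1 (-0.40, adjusted p = 1), FRO2 (-0.24, adjusted p = 1), bHLH100 (-0.10, adjusted p = 1), FER1 (-0.54, adjusted p = 1) and NAS2 (-0.51, adjusted p = 0.795) did not pass there. On control medium 205 genes (0.996%) differed, 191 higher (0.928%) and 14 lower (0.068%), with IRT1 higher by 3.91, adjusted p = 1.42e-05, bHLH100 by 3.37, adjusted p = 0.000276 and NAS2 by 2.20, adjusted p = 8.99e-05. FER1 was at 0.90, adjusted p = 0.168, which did not pass.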

How the data were processed

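The authors deposited 26 tables of 2 groups each. Per library, the 9 root tables used hold RPKM values normalised by the authors for length and library size, a unit read from the values since no header names it. They also give a log2 fold change of means and a p-value by the authors, unused here. Per the submitters' processing notes the tools were Bowtie2 2.0.6, Trimmomatic 0.35, bcl2fastq 1.8.4, limma 3.26.9 and edgeR 3.12.1, with TAIR10 as genome. The authors' values look equalised within each table, so that the same EYFP OE control library varied across tables (median SD up to 0.0293 in log2 units).

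No table holds both opt3-2 groups. The log2(RPKM + 0.5) fold change of each against EYFP OE roots on control medium was taken in its own table, and the 2 were subtracted. The difference between responses was the opt3-2 against EYFP OE change on deficient medium minus that on control medium, from 2 direct tables. The pseudocount shrinks changes of low genes. The residual spread of 8 root groups (8 degrees of freedom, 3.07 prior) was moderated with a trend on level using squeezeVar (limma 3.58.1, R 4.3.3, data.table release 1.17.8). Benjamini-Hochberg adjustment of 2-sided p-values ran over 20586 loci with a threshold of 0.05. With a library left out, the lone one of its group was assumed to vary like the other groups. The test was checked on simulated data in which libraries varied independently. That check held no correlation of same-numbered libraries and no shift between tables, so it does not cover these.

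Named genes are the members of 24 lists (216 of 236 tested) plus, among genes past the threshold whose libraries do not overlap, the 20 largest rises, 20 largest falls and 10 largest differences each way, of which 3 were higher. The comparison, members and lists were chosen with earlier results of these data known. Alternatives were other pseudocounts, filters, sources of the spread and routes through the tables, a replicate block and each library left out. The fit without the IMA3 OE deficient group was chosen after seeing the data. Rosette tables were not used here.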

Additional observations from a re-analysis of the deposited data

Results flagged for a closer look

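The response to deficient medium differed between opt3-2 and EYFP OE roots, by a test of that difference, for 37 of the genes named. The values in brackets are log2 differences, opt3-2 minus EYFP OE. In uptake, coumarins and their regulators they were CYP82C4 (-5.41), S8H (-5.27), IRT1 (-4.30), FRO2 (-3.92), bHLH100 (-3.47), MYB72 (-3.41), bHLH38 (-2.95), bHLH39 (-2.77), bHLH101 (-2.28), MYB10 (-2.22), BTSL1 (-1.41) and FIT (-1.19). In metal transport and chelation they were ZIP8 (-4.13), MTP8 (-2.80), COPT2 (-2.77), NAS2 (-2.71), MTP3 (-2.52), NAS1 (-2.51), NRAMP3 (-2.22), HMA3 (-2.16), FRD3 (-1.97) and FPN2 (-1.85). In methionine salvage they were MTK (-1.34), MTI1 (-1.29) and ARD2 (-1.16). The remaining lower genes were AT1G73120 (-4.97), GSTL1 (-3.70), AT4G10510 (-3.57), DIR5 (-3.57), AT1G52120 (-3.56), PRX52 (-3.24), DIN11 (-3.18), IGMT4 (-2.13) and AT1G53635 (-2.03). The higher genes were AT5G38290 (0.74), MIR159a (1.59) and AT1G47405 (2.16), the last with mean EYFP OE levels under the pseudocount. Calls ended for AT1G53635 without opt3-2 control replicate 1 or 2 or opt3-2 deficient replicate 1 or any 1 of the 4 EYFP OE libraries (highest adjusted p = 0.184).

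The feature for the construct inserted in the opt3-2 line, which no comparison used, had 0.41 and 0.23 RPKM in opt3-2 control libraries and 1.36 and 2.05 RPKM (mean 1.71) in opt3-2 deficient libraries, against 0.04 to 0.06 RPKM in the 4 EYFP OE libraries. The difference between media was not tested.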

How the results depend on the processing

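The count of genes changed in opt3-2, 183, fell to 97 with no level filter, 120 with the spread taken from the opt3-2 and EYFP OE groups and 59 with the spread of the 2 opt3-2 groups alone. It ran from 49 to 200 with 1 library left out. For the difference between responses the 91 genes became 50 to 92 with 1 library left out. With no level filter 82 genes differed, of which 17 were higher in opt3-2 against 3 of 91. With the replicate number as a block 420 genes changed in opt3-2 and 138 differed in response. The numbers pair nothing that the labels state: deviations of same-numbered libraries correlated at 0.313 between the opt3-2 groups and at 0.0202 to 0.482 over all pairs of root groups. The cause of these shifts was not tested. Of the 78 named genes that passed in opt3-2, 30 passed in all 8 fits that left out 1 library and 48 did not, and of the 37 that differed in response 26 did and 11 did not. None of these genes changed direction under the settings run. For the opt3-2 response this was largely fixed beforehand. Its called genes had libraries apart between media, so leaving out 1 opt3-2 library could not reverse a sign. Settings of the spread or the filter leave a fold change as it is. With 2 libraries a group and unknown depth, small changes and weakly expressed genes are beyond the precision of these data.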

Other observations

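Lists of defence, jasmonate, phosphate starvation and suberin genes held no call by the limma-type test. Over all tested genes 0.889% had a call, so the absence of calls in lists this short says little. How many of all tested genes had an unadjusted p under 0.05 is not given here. In the salicylate, camalexin and pathogen list, 0 of 7 tested members passed, 4 were lower at an unadjusted p under 0.05 and the median log2 fold change was -0.57, beside 0.02 over all genes. In the jasmonate list 0 of 7 passed and 0 had an unadjusted p under 0.05 (median -0.21), and the same counts held for phosphate starvation (0 of 7, 0 unadjusted, median -0.12). In suberin synthesis 0 of 11 passed and 1 was lower at an unadjusted p under 0.05 (median -0.11).

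Marker genes of root cell types were present in every opt3-2 library. Endodermis markers of the Casparian strip had 0 of 8 calls and 0 unadjusted, phloem markers 0 of 6 and 0, xylem markers 0 of 5 and 0, and markers of dividing cells 0 of 3 and 0. Root hair markers had 0 of 8 calls and 3 lower at an unadjusted p under 0.05 (median -0.16). With 0.889% of all tested genes called, lists this short would hold few calls. In the difference between responses, 0 of 8 endodermis, 0 of 8 root hair and 0 of 6 phloem markers passed the limma-type test. At an unadjusted p under 0.05, 4 of 8 endodermis and 2 of 8 root hair markers were lower, and 1 of 6 phloem markers was higher. Without the share of all tested genes at that level, these counts are not read as a result about the cell types.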
